A study of Mus musculus with 24 samples.

Results

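The comparison described here asked what the S63del allele did to gene expression in 5-day-old sciatic nerve when the animals carried no Chop. It set the 2 arrays of S63del/Chop null nerve at postnatal day 5 (P5) against the 2 arrays of Chop null nerve of the same age, 4 of the 24 arrays of the series, chosen by their titles. Both groups lacked Chop and differed in the allele that the labels write P0S63del, a mutant myelin protein, and the mice that carry it are labelled neuropathic. Below, S63del/Chop null animals are called mutant and Chop null animals control. The whole series held WT, Chop null, S63del and S63del/Chop null mice at P5, P28 and 4 months, 2 arrays for each of 12 groups. The labels call the arrays of a group biological replicates. They do not say how many animals gave 1 array, whether nerves were pooled, or how the mutant allele and the null allele were made. The perineurial sheath was taken off before freezing, and biotin-labelled RNA of the whole remaining nerve was hybridised, so fewer cells of a type and less RNA per cell cannot be told apart in any value below.

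Schwann cells of the peripheral nerve wrap axons in myelin, and in the first postnatal weeks they make large amounts of membrane lipid and of secretory-pathway protein. A misfolded protein in the endoplasmic reticulum (ER) sets off the unfolded protein response. Its PERK branch raises ATF4, which in turn raises amino acid genes and the transcription factor CHOP, encoded by Ddit3; its ATF6 and IRE1 branches raise ER chaperones and the machinery that sends proteins out for degradation. Misfolded protein in the cytosol instead activates heat shock factors and their chaperone genes.

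The targeted gene was looked at first. Ddit3 stood at log2 7.66 and 7.61 on the WT arrays at P5 and at 6.85 and 6.60 on the Chop null arrays. It stood at 9.59 and 9.52 in S63del and at 6.93 and 6.82 in S63del/Chop null. All 4 arrays labelled null lay below all 4 with Chop. The sources used here do not give where the probe set lies relative to the deleted stretch, so the remaining signal says nothing of the protein. Schwann cell identity was checked on Sox10, the lineage's transcription factor, which stood at 10.79 and 10.78 in the control and 10.80 and 10.60 in the mutant nerves. Pmp22, a compact myelin protein, stood at 14.18 and 14.23 against 13.98 and 13.94.

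In limma's test across 12393 genes, 221 genes (1.78%) passed an adjusted p of 0.05 in mutant against control nerve. Of these 112 were higher (0.904% of genes) and 109 lower (0.88%), and 74 differed by over 2-fold, 40 of them upward. The median difference over all genes was -0.001 on the log2 scale, 49.6% of genes lay above 0, and 1045 (8.43%) had an unadjusted p under 0.05. Leaving out 1 of the 4 arrays leaves 1 array in a group, which by itself widens the SE whichever array it is. A call lost that way, here and below, does not show that it rested on that array. The count of called genes fell in each such fit. It was 78 without control replicate 1, 99 without control replicate 2, 91 without mutant replicate 1 and 103 without mutant replicate 2. It was 441 without 2 arrays of other groups that stood apart from the rest of the series, replicate 2 of Chop null at P28 and replicate 1 of WT at 4 months, which enter the shared estimate of the spread. Of 112 called genes that were followed, 50 kept their call without each of the 4 arrays.

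The largest rises were in heat shock genes of the cytosol, which fold or hold unfolded proteins. Hspa1a, the inducible HSP70, read 5.69 and 5.99 on the control arrays and 11.27 and 11.05 on the mutant arrays. The groups lay far apart, and the log2 difference was 5.32 ± 0.30 (n = 2 and 2, adjusted p 8.94e-09), a 39.9-fold rise. Here and below, ± gives the SE of the fit, whose spread per gene comes from all 24 arrays and not from these 4 alone. Hspa1b, its near-identical neighbour, went from 8.31 and 8.30 to 12.02 and 11.89, and since probes may read both copies the split between them is uncertain. Hspb1, the small heat shock protein HSP27, read 8.78 and 9.08 in control and 12.88 and 12.50 in mutant nerve, a rise of 3.76 ± 0.16 (adjusted p 4.25e-10). The small heat shock protein gene Hspb8 rose by 1.88 ± 0.29, from 5.89 and 6.26 to 8.09 and 7.81.

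Of 32 measured heat shock genes and co-chaperones 10 rose and none fell, with a median of 0.28 over the list. The others that rose were Hsph1 by 1.12, Hsp90aa1 by 0.75, the HSP40 gene Dnajb1 by 0.62, the mitochondrial chaperonin pair Hspd1 and Hspe1 by 0.59 and 0.58, and the co-chaperone Stip1 by 0.51. Other members did not pass. The constitutive Hspa8 read 13.20 and 13.18 against 13.51 and 13.41 (adjusted p 0.479), and the lens and Schwann cell small chaperone Cryab read 12.85 and 12.87 against 13.06 and 12.88 (adjusted p 0.999). Leaving out 1 of the 4 arrays left 4 or 5 of the 10 calls in this list, and the fit without the 2 arrays that stood apart gave 13. The calls of Hsph1, Hsp90aa1, Hspd1, Hspe1 and Stip1 were lost without each of the 4 arrays, with adjusted p between 0.0896 and 0.348. Dnajb1 was lost without mutant replicate 1 (0.0716) and without control replicate 2 (0.0514).

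The promoters of the leading pair are shown because the binding site of heat shock factors is a textbook one that can be looked for. They are RefSeq windows of GRCm38.p6, 250 bases before to 50 after the transcription start, read 5′ to 3′ on the gene's strand, with capitals marking GAANNTTC, a pair of inverted heat shock units that reads alike on both strands. The letters start at position -104 from the transcription start in Hspa1a and at -117 and -97 in Hspb1.
Hspa1a promoter, chr17:34972107-34972406, minus strand: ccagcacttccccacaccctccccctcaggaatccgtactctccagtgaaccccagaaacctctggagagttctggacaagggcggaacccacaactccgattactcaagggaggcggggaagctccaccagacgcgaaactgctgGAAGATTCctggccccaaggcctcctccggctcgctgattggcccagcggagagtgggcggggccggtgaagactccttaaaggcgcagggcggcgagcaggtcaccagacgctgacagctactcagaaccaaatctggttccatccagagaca
Hspb1 promoter, chr5:135887669-135887968, plus strand: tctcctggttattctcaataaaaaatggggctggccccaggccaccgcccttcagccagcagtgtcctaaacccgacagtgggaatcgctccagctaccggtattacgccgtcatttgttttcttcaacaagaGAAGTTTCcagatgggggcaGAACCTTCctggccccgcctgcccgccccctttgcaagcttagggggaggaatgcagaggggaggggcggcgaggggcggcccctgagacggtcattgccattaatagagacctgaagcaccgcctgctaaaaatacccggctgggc
The motif stood in 14 of 28 heat shock list genes that had a window, 7 of the 9 called ones among them. Of all 27025 genes with a window, 9.04% held it. A match of letters is a description and shows no binding.

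Genes of the ER itself rose too. Sdf2l1, an ER chaperone partner, read 7.20 and 7.02 in control nerve and 9.41 and 9.21 in mutant nerve, a difference of 2.20 ± 0.20 (adjusted p 5.09e-06). Creld2, an ER-resident disulfide isomerase-like protein, read 9.25 and 9.26 against 10.82 and 10.86, a difference of 1.59 ± 0.23 (adjusted p 0.000595). The control and mutant arrays did not overlap in either gene. Pdia4, a protein disulfide isomerase, rose by 0.93, Manf, a secreted ER stress protein, by 0.88, the HSP40 co-chaperone Dnajb11 by 0.74 and Hsp90b1, the ER form of HSP90, by 0.60. These 6 were the called members of 33 measured ER chaperones and folding enzymes, and none fell. All 33 lay above 0, with a median of 0.29. Hspa5, the ER HSP70 known as BiP, read 12.51 and 12.58 against 13.11 and 13.21 without overlap and did not pass the test (0.61 ± 0.21, adjusted p 0.258). With 1 of the 4 arrays left out 3 or 4 members of the list were called, and 12 without the 2 arrays that stood apart. Manf and Hsp90b1 were lost without each of the 4 arrays (adjusted p 0.0946 to 0.207) and Dnajb11 without control replicate 1 (0.0684).

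A joint list covered ER-associated degradation, which pulls misfolded proteins back to the cytosol, and translocation, which brings new proteins into the ER. Of its 40 measured genes 4 rose and none fell (median 0.18), and all 4 belong to degradation. Fbxo2, an F-box protein that recognises glycoproteins for ubiquitination, read 4.43 and 4.39 in control and 7.80 and 7.68 in mutant nerve, a rise of 3.33 ± 0.18 (adjusted p 4.32e-09). Derl3, a derlin of the export channel, read 6.38 and 6.14 against 8.90 and 8.91, a rise of 2.65 ± 0.24 (adjusted p 4.71e-06). In both genes every mutant array lay more than 2 log2 units above every control array. Herpud1, an adaptor of the ubiquitin ligase complex, rose by 0.97 and the ligase Syvn1 itself by 0.73; Syvn1 lost its call without mutant replicate 1 (adjusted p 0.298), control replicate 1 (0.141) and control replicate 2 (0.146). The sensors and regulators of the response gave 0 calls of 18 (median 0.03). With 1.78% of all genes called, a list this short may hold none. Among them Xbp1, the IRE1 branch factor, read 11.93 and 11.92 against 11.81 and 11.86 (adjusted p 0.999), which is total signal and does not tell its spliced form. Atf6 read 7.59 and 7.50 against 7.62 and 7.68.

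Promoters of a chaperone and a degradation gene are shown for the ER stress element, which is CCAAT, 9 bases of any kind and CCACG. It was searched on both strands and is in capitals where it was found. Both matches lie on the other strand, starting at position -126 in Creld2 and -156 in Derl3. Derl3 was chosen for display after its values were seen.
Creld2 promoter, chr15:88819396-88819695, plus strand: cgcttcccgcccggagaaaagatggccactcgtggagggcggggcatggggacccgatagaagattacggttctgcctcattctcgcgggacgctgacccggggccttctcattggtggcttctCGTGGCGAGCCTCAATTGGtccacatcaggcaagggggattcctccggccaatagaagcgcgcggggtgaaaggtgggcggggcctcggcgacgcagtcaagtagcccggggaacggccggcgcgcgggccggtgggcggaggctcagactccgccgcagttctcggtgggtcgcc
Derl3 promoter, chr10:75893148-75893447, plus strand: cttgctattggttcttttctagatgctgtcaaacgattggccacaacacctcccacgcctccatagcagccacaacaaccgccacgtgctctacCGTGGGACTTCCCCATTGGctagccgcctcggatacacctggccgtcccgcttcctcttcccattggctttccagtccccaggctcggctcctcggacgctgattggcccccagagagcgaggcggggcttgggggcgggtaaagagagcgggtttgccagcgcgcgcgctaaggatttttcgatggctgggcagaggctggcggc
Of 29 chaperone genes with a window 8 held the element, Hspa5 and Hsp90b1 among them, and of 31 genes of the joint list of degradation and translocation 2 did, Derl3 and Syvn1. It stood in 0.137% of all genes with a window. These letters were not in the window of Sdf2l1.

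Amino acid and stress genes linked to ATF4 formed the next group. Asns, asparagine synthetase, read 6.79 on both control arrays and 9.76 and 9.63 on the mutant arrays, a rise of 2.90 ± 0.15 (adjusted p 4.07e-09). Chac1, which degrades glutathione, read 4.75 and 4.54 against 7.68 and 7.22, a rise of 2.81 ± 0.17 (adjusted p 2.95e-08). The amino acid transporter Slc7a3 read 4.51 and 4.49 against 6.24 and 6.28, a rise of 1.75 ± 0.17 (adjusted p 1.06e-05). In these 3 genes every mutant array lay above every control array by more than 1 log2 unit. Atf3, a stress transcription factor, rose by 1.68 ± 0.20, from 7.34 and 7.10 to 9.03 and 8.78, and Slc3a2, the shared heavy chain of amino acid exchangers, by 0.75. They make 5 of 36 measured list genes higher and 0 lower, with a median of 0.29 and 4 to 6 calls with 1 of the 4 arrays left out. Slc3a2 lost its call without mutant replicate 1 (adjusted p 0.165), control replicate 1 (0.0944) and control replicate 2 (0.0682). Without the 2 arrays that stood apart 8 members were called.

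Atf4 itself read 10.57 and 10.66 in control and 10.88 and 10.90 in mutant nerve, which did not pass (0.28 ± 0.12, adjusted p 0.45); the factor is known to be set mainly by translation. Trib3, a pseudokinase, depended on the probe set. Its brighter one read 5.63 and 5.96 against 6.55 and 6.34 and did not pass (0.64 ± 0.18, adjusted p 0.11), whereas the other differed by 1.32 and passed (adjusted p 0.00103 in the fit of all probe sets). The mean of both passed too (0.98, adjusted p 0.00175). The next stress genes gave no call. Ppp1r15a, which encodes the phosphatase subunit GADD34, read 9.46 and 9.41 against 9.67 and 9.43, and Ero1a, an ER oxidase, 8.51 and 8.33 against 8.47 and 8.46; in both genes the groups overlapped (adjusted p 0.999 for each). Among 18 cytosolic aminoacyl-tRNA synthetases, which load tRNAs, 17 lay above 0 with a median of 0.30, and Nars alone was called (0.59, adjusted p 0.0467). That call was lost without each of the 4 arrays, with adjusted p from 0.148 to 0.431.

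The ATF4 element TGATGNAA was searched on both strands, and 2 promoters that hold it are shown with the match in capitals. It starts at position -23 in Asns, on the gene's strand, and at -193 in Chac1, on the other strand.
Asns promoter, chr6:7693160-7693459, minus strand: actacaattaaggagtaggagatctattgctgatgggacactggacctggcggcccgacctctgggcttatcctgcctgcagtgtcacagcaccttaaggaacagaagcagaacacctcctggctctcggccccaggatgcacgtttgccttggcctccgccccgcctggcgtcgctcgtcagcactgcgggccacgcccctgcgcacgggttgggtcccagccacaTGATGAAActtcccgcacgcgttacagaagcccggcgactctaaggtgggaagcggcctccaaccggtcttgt
Chac1 promoter, chr2:119350992-119351291, plus strand: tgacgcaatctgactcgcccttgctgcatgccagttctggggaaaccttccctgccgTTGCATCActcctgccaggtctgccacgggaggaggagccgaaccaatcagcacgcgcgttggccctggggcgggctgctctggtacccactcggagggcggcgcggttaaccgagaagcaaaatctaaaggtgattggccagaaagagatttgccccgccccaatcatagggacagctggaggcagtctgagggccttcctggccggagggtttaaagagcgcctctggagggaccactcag
It stood in 10 of 31 list genes with a window, 3 of the 4 called ones among them. Of all genes with a window, 4.51% held it.

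**Figure D1:**
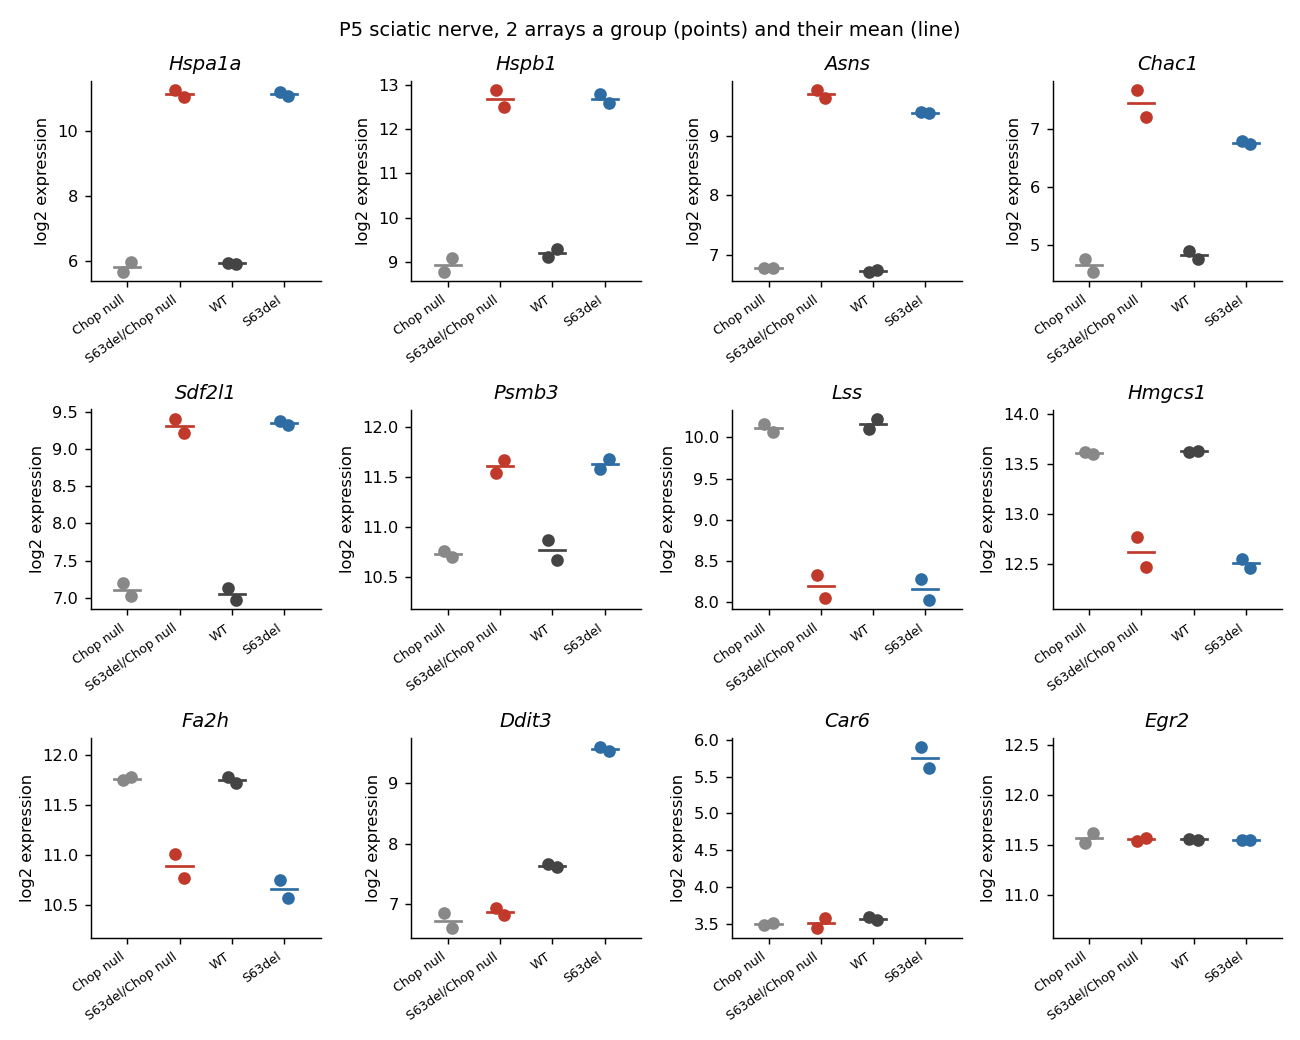
Log2 expression (y axis) of 12 genes on the 8 arrays at P5, 2 points a group with a line at their mean; each panel has its own scale, spanning at least 2 log2 units. Mutant nerves without Chop (red) stand apart from Chop null nerves in the heat shock, amino acid, ER and proteasome genes and, downward, in Lss, Hmgcs1 and Fa2h, whereas Ddit3 and Car6 are high in S63del nerves alone and Egr2 reads alike in all groups.

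Subunits of the proteasome, the protease that degrades ubiquitinated proteins, were higher as a group. All 32 measured subunits lay above 0, between 0.27 and 0.88, with a median of 0.47, and 9 of them passed the test. The mean of the 32 was 10.84 on both control arrays and 11.30 on both mutant arrays. Psmb3, a subunit of the core particle, read 10.76 and 10.70 against 11.54 and 11.67, a rise of 0.88 ± 0.15 (adjusted p 0.0039). The regulatory-particle subunits Psmd3 and Psmd4 rose by 0.59 and 0.57, and Psmb5, which carries a catalytic site, by 0.52. Differences of this size lie close to the limit of the test: with 1 of the 4 arrays left out 0 to 2 subunits were called, and without the 2 arrays that stood apart 20 were. Psmb3 lost its call without mutant replicate 2 (adjusted p 0.0654) and control replicate 2 (0.0586), and Psmb5, Psmd3 and Psmd4 without each of the 4 arrays (0.0564 to 0.292). Of 26 genes of autophagy and lysosome 2 rose, the ubiquitin-binding receptor Sqstm1 by 0.91 and Gabarapl1, a protein of the autophagosome membrane, by 0.58, with a median of -0.01. With 1 of the 4 arrays left out 0 or 1 of these was called.

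The cholesterol pathway ran the other way. Lss, lanosterol synthase, read 10.16 and 10.07 in control and 8.32 and 8.05 in mutant nerve, a fall of -1.93 ± 0.28 (adjusted p 0.000835). Tm7sf2, a sterol reductase, read 10.20 and 10.06 against 8.36 and 8.18, a fall of -1.86 ± 0.20 (adjusted p 3.89e-05). Hmgcs1, which makes HMG-CoA at the start of the pathway, read 13.62 and 13.60 against 12.77 and 12.47, a fall of -0.99 ± 0.12 (adjusted p 0.000161). The groups were apart in all 3 genes, by most in Lss and Tm7sf2.

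Of 19 measured genes of cholesterol synthesis 14 fell and none rose, all 19 lay below 0, and the median was -0.99. The falls ran from the early isoprenoid steps (Idi1 -1.37, Mvd -1.12, Mvk -0.69) through squalene formation (Fdft1 -1.18, Sqle -0.94) to the sterol steps (Nsdhl -1.24, Sc5d -1.28, Cyp51 -1.13, Hsd17b7 -1.11, Dhcr7 -0.93, Msmo1 -0.89). Fdps read 12.25 and 12.20 against 11.51 and 11.23 and just missed the threshold (adjusted p 0.0596). With 1 of the 4 arrays left out 9 members were called, whichever array it was, and 16 without the 2 arrays that stood apart. Cyp51, Sc5d, Sqle, Msmo1 and Mvk lost their calls without each of the 4 arrays, with adjusted p from 0.0502 to 0.346. Ggps1, the member nearest to 0 at -0.05, read 0.01 without mutant replicate 1 and 0.06 as the mean of its probe sets.

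Srebf2, which encodes the transcription factor of the pathway, read 9.24 and 9.37 against 8.88 and 8.75 (-0.49 ± 0.18, adjusted p 0.322). In the list of sterol sensing and uptake 2 of 14 genes rose and 1 fell. Mylip, the ligase that degrades lipoprotein receptors, rose by 0.52, and Apod, a lipid-carrying lipocalin of nerve, by 0.93, from 11.28 and 11.34 to 12.40 and 12.09. Stard4, a sterol carrier, fell by 0.94 (adjusted p 0.0455). Mylip and Stard4 lost their calls without each of the 4 arrays, with adjusted p from 0.115 to 0.513, and 1 member of the list was then called.

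One promoter of the pathway is shown for the sterol regulatory element TCACNCCAC, searched on both strands. In Hmgcs1, chosen for display after the values were seen, it starts at position -137 on the gene's strand and is in capitals.
Hmgcs1 promoter, chr13:119690101-119690400, plus strand: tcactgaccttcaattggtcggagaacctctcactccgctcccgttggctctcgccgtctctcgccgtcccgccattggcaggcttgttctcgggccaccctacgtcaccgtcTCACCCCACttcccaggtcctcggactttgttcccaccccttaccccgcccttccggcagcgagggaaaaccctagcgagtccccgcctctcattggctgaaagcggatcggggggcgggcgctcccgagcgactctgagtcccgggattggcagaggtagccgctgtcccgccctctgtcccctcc
Hmgcs1 was the only 1 of 16 list genes with a window that held these letters, against 1.44% of all genes with a window. The windows of Lss and Tm7sf2 did not hold them.

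Lipid genes beyond cholesterol moved the same way in part. Of 32 measured genes of fatty acid, phospholipid and sphingolipid synthesis 7 fell and none rose, with a median of -0.37. Acss2, which makes acetyl-CoA from acetate, read 9.18 and 9.17 against 7.52 and 7.49 (-1.68 ± 0.34, adjusted p 0.0121). The desaturase Scd1 fell by 1.37, the elongases Elovl6 and Elovl7 by 1.28 and 1.04, the desaturase Fads1 by 0.78, the ceramide synthase Cers2 by 0.54 and Scd2 by 0.49. Fatty acid synthase, Fasn, read 10.57 and 10.61 against 9.86 and 9.60 without overlap and did not pass (adjusted p 0.444). Aacs, which feeds ketone bodies into lipid synthesis, fell by 1.47. Acss2, Aacs, Fads1 and Cers2 lost their calls without each of the 4 arrays (adjusted p 0.0523 to 0.425), and Scd2 without control replicate 1 (0.328), control replicate 2 (0.157) and mutant replicate 2 (0.496). Then 3 or 4 members of the list were called, against 13 without the 2 arrays that stood apart.

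**Figure D2:**
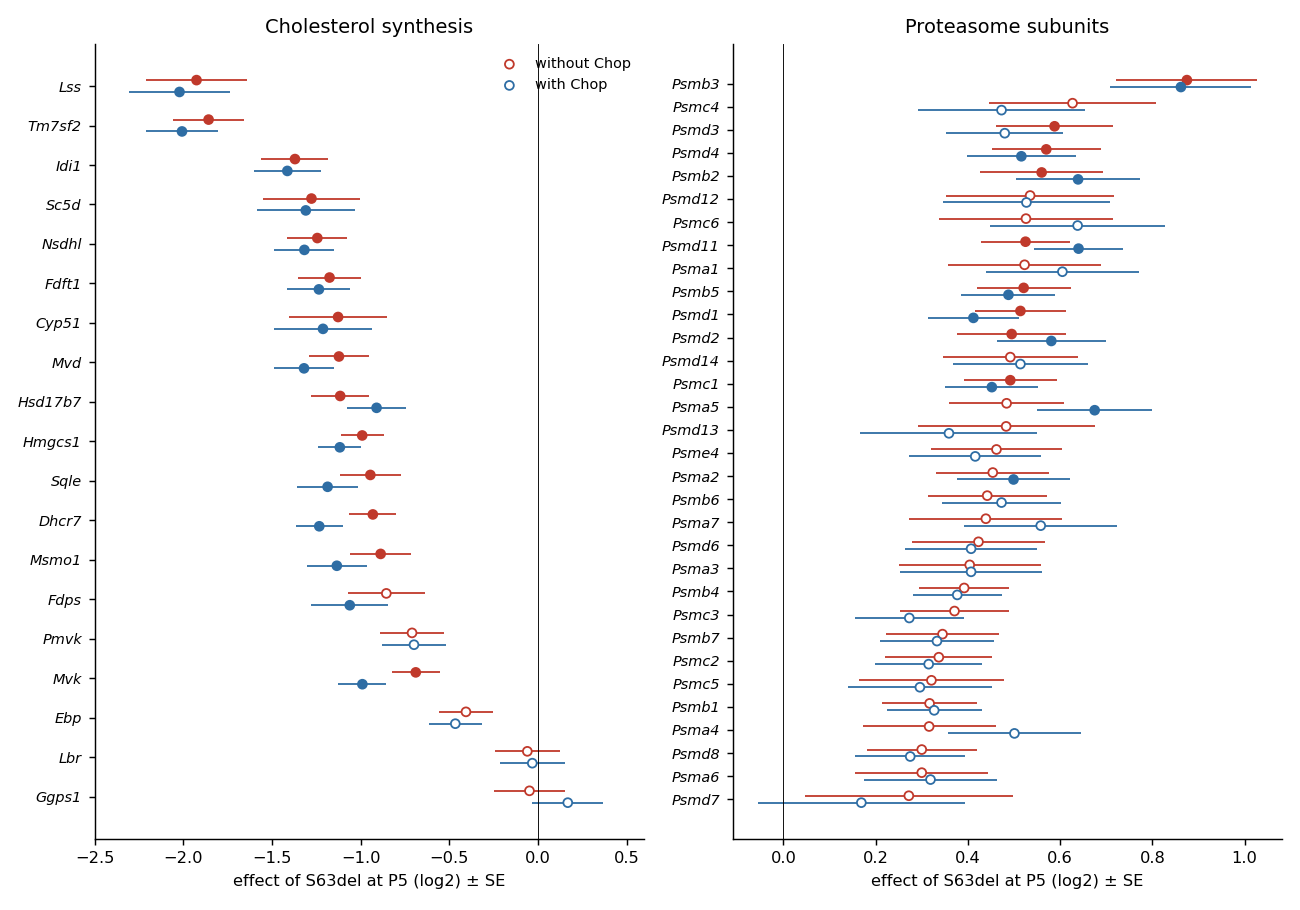
Effect of S63del at P5 (x axis, log2 difference with its SE) for 19 cholesterol genes and 32 proteasome subunits (y axis), without Chop in red and with Chop in blue; filled points have an adjusted p under 0.05. All 19 red points of the left panel are below 0 and all 32 on the right are positive, and the blue points follow them, with Ggps1 as the exception on the left.

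Myelin genes were lower, by less. Of 22 measured myelin proteins and galactolipid enzymes 8 fell, none rose and 20 lay below 0, with a median of -0.38. S100b, a calcium-binding protein of myelinating Schwann cells, read 10.94 and 10.68 in control and 9.96 and 9.80 in mutant nerve (-0.93 ± 0.12, adjusted p 0.000299). Ugt8a and Fa2h make the galactolipids of myelin. Ugt8a averaged 12.96 in control and 12.08 in mutant nerve (-0.88 ± 0.13, adjusted p 0.000798), and Fa2h 11.75 and 11.78 against 11.01 and 10.77 (-0.88 ± 0.14, adjusted p 0.00244). Mutant arrays lay below control arrays in each of these 3 genes. Car2 fell by 0.98, Ncmap, a membrane protein of peripheral myelin, by 0.80, the tetraspanin Cd9 by 0.61, Mal by 0.48 and Mbp, myelin basic protein, by 0.44.

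Mbp has 8 probe sets, all with a difference below 0, and 7 of them did not pass the test. The adhesion protein gene Mag read 11.20 and 11.17 against 10.76 and 10.64 (adjusted p 0.589), and Pmp22 differed by -0.25 (adjusted p 0.255). With 1 of the 4 arrays left out 3 to 6 members of the list were called. Mbp and Mal lost their calls without each array (adjusted p 0.051 to 0.223). Car2 did so without control replicate 1 (0.249), mutant replicate 1 (0.098) and mutant replicate 2 (0.111), Ncmap without control replicate 1 (0.0563) and mutant replicate 2 (0.0591), and Fa2h without mutant replicate 2 (0.0619). Without the 2 arrays that stood apart 11 were called.

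None of 27 measured Schwann cell transcription factors and signalling genes passed the test, with a median of -0.01. Of all genes 1.78% passed, so 0 calls in a list this short says little of its members. Egr2, the factor that drives myelination, read 11.52 and 11.62 in control and 11.54 and 11.57 in mutant nerve. Pou3f1, a factor of promyelinating cells, read 10.96 and 11.11 against 11.18 and 11.11, and Sox2, a factor of immature cells, 9.11 and 9.14 against 9.57 and 9.49 (adjusted p 0.999 for all 3). Sox2 was higher on both mutant arrays, Egr2 and Pou3f1 overlapped. Jun, which marks repair cells, read 9.37 and 9.28 against 9.95 and 9.39 (adjusted p 0.791).

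In the list of immature and repair Schwann cells 4 of 28 genes rose and none fell (median 0.06). Gdnf, a neurotrophic factor, read 3.85 and 3.67 against 5.98 and 5.26 (1.86 ± 0.24, adjusted p 0.000299). Uchl1, a ubiquitin hydrolase abundant in neurons, read 7.81 and 7.71 against 10.57 and 10.17 (2.61 ± 0.30, adjusted p 8.6e-05). The neurotrophin receptor Ngfr rose by 0.83 and the growth factor Btc by 1.46, and both lost their calls without each of the 4 arrays (adjusted p 0.0619 to 0.52), leaving 2 in the list. Tubb3, the neuronal beta-tubulin, read 4.65 and 4.64 against 7.47 and 7.46 (2.82 ± 0.21, adjusted p 3.45e-07). With Uchl1 it made the 2 genes called of 22 axonal and neuronal genes, whose median was -0.08.

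Secreted signals and early response genes rose in small numbers. Cxcl10 read 6.75 and 6.64 in control and 9.86 and 9.64 in mutant nerve (3.05 ± 0.61, adjusted p 0.0114), and Cxcl14 read 8.31 and 8.16 against 10.69 and 10.31 (2.26 ± 0.30, adjusted p 0.000381). With Ccl8 (1.97) and Ccl2 (1.16) they were the 4 of 26 cytokines and chemokines that rose, and none fell (median 0.12). Cxcl10 and Ccl2 lost their calls without each of the 4 arrays (adjusted p 0.0761 to 0.362) and Ccl8 without mutant replicate 1 (0.102) and control replicate 2 (0.157), so that 1 or 2 members were called. Lgals3, galectin-3, read 8.53 on both control arrays against 11.24 and 10.91 (2.55 ± 0.27, adjusted p 2.59e-05). It was the only 1 of 31 macrophage genes called; the median of the list was 0.04, and the macrophage marker Adgre1 read 7.87 and 7.86 against 7.82 and 8.01.

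Tnfrsf12a, the TWEAK receptor, read 8.56 and 8.61 against 10.65 and 10.53 (2.0 ± 0.18, adjusted p 5.09e-06). Of 34 immediate early genes 7 rose, among them Ccn1 by 1.01, Ier3 by 0.95, Fos by 0.92 and Cebpd by 0.72, with a median of 0.23. With 1 of the 4 arrays left out 2 to 4 were called. Fos and Cebpd lost their calls without each array (adjusted p 0.131 to 0.235) and Ccn1 without mutant replicate 1 (0.052). Stress and death lists gave 2 rises each: Srxn1 by 1.62 and Blvrb by 0.89 of 27 NRF2 antioxidant genes, and Fas by 0.70 and Tnfrsf1a by 0.44 of 25 genes of apoptosis and p53. Srxn1 lost its call without mutant replicate 1 (0.0532), and Fas and Tnfrsf1a without each of the 4 arrays (0.139 to 0.409).

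Falls outside lipid and myelin genes included several membrane proteins. Chdh, choline dehydrogenase, read 7.39 and 7.38 in control and 5.66 and 5.35 in mutant nerve (-1.89 ± 0.15, adjusted p 8.48e-07). Sema5a, a guidance molecule, read 8.65 and 8.61 against 6.85 and 6.78 (-1.82 ± 0.17, adjusted p 5.09e-06), and Chst2, a sulfotransferase, 8.18 and 7.96 against 6.42 and 6.29 (-1.72 ± 0.17, adjusted p 1.47e-05). All 3 lay more than 1 log2 unit lower on every mutant array. The amino acid transporter Slc6a15 fell by 1.80, the protease inhibitor Serpinb6b by 1.86, the sodium channel subunit Scn3b by 1.51 and H2-DMa, which loads class II molecules, by 1.53.

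Markers of other cells were read on the same arrays. None of 12 erythroid genes lay above 0 (median -0.46, 1 called), and their mean was 7.41 and 6.98 on the control arrays against 6.61 and 6.70 on the mutant arrays. Slc4a1, the red cell anion exchanger, read 9.31 and 8.26 against 7.18 on both mutant arrays; its call was lost without control replicate 1 (adjusted p 0.542), mutant replicate 1 (0.173) and mutant replicate 2 (0.176). The mean of 31 skeletal muscle genes differed more within a group than between groups, at 7.41 and 8.42 in control and 8.40 and 7.21 in mutant nerve. Of these Car3 alone was called (-0.95), and it was lost without control replicate 2 (0.593), mutant replicate 1 (0.432) and mutant replicate 2 (0.0896). The mean of 17 adipocyte genes was 6.95 and 7.40 against 6.63 and 6.91 (median -0.51, 0 called). Their part in the results above was not tested. The lists given next are short beside the 1.78% of all genes called, so 0 calls says little of their members. Lists of cell cycle (0 of 38 called, 35 above 0, median 0.18), endothelium and pericytes (0 of 30, median -0.19), lymphocytes, mast cells and neutrophils (0 of 28, median -0.14), cytosolic ribosomal proteins (0 of 21), mitochondrial respiration (0 of 34), glycolysis and hypoxia (0 of 27), clock genes (0 of 16), sex-linked genes (0 of 4) and imprinted genes (0 of 16) gave no call. Of 31 fibroblast, perineurium and matrix genes Ogn fell (-0.72), and of 26 antigen presentation and interferon genes H2-DMa and Rsad2 fell (-1.06 for the latter, lost without control replicate 1, with an adjusted p of 0.742, and without mutant replicate 1, 0.511, and 2, 0.0724). Ogn was lost without control replicate 1 (0.0739) and mutant replicate 1 (0.0523).

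**Figure D3:**
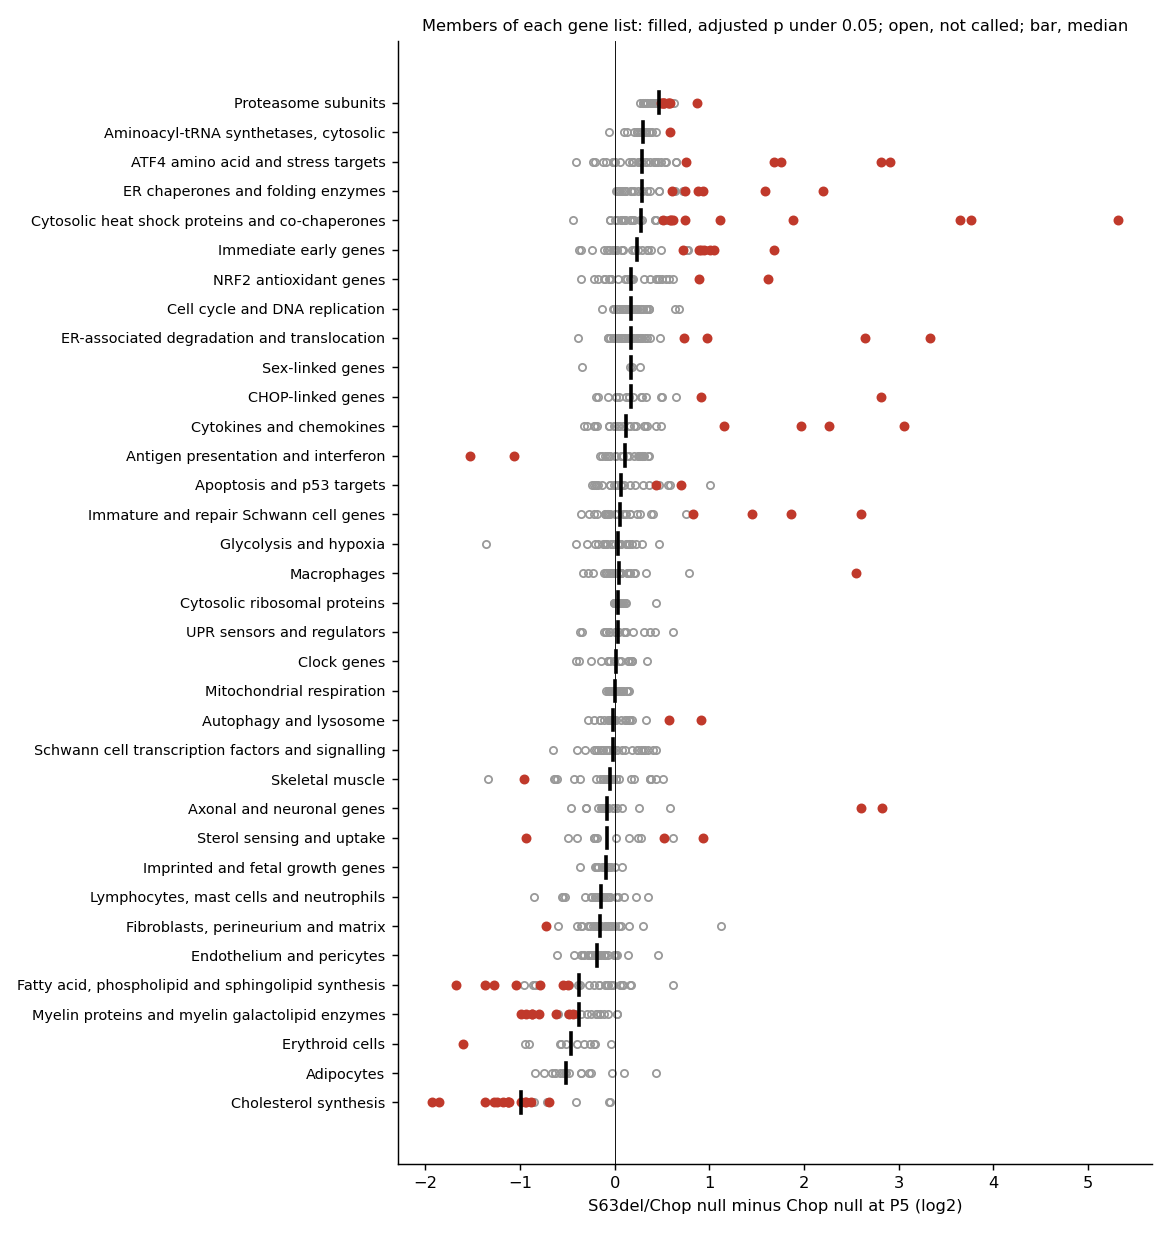
Log2 difference between mutant and control nerve without Chop at P5 (x axis) for the measured members of 35 gene lists (y axis), ordered by the list's median (bar); filled points have an adjusted p under 0.05. Proteasome subunits have the highest median (0.47) and lie all to the right of 0, and cholesterol genes have the lowest (-0.99) and lie all to the left.

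The same allele was read in nerves that have Chop, S63del against WT at P5, on 4 other arrays that share none with the comparison above. There 298 genes (2.4%) were called, 1.15% of genes higher and 1.26% lower, and 187 genes were called in both comparisons, all with the same sign. That is 84.6% of the 221 and 62.8% of the 298. Of the 221 genes, 220 (99.5%) had the same sign in nerves with Chop, against 69.9% of all genes. The exception was Mkrn3, at -0.60 without and 0.17 with Chop. The latter did not pass limma's test (adjusted p 0.744), so an opposite effect is not shown. Rises had a median of 0.87 without and 0.82 with Chop, and falls of -0.86 and -0.89. The genes were chosen by their effect without Chop, so the medians without and with Chop do not stand on equal terms. Over all 12393 genes the 2 effects had Pearson's r = 0.78 and Spearman's rho = 0.59, across genes, which are not independent replicates.

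Side by side, Hspa1a rose by 5.32 without and 5.21 with Chop, Hspb1 by 3.76 and 3.48, Fbxo2 by 3.33 and 3.34, Sdf2l1 by 2.20 and 2.31 and Atf3 by 1.68 and 1.81. Lss differed by -1.93 without and -2.02 with Chop, Chdh by -1.89 and -1.90, and S100b by -0.93 and -1.06. The medians of the lists were close as well: 0.47 and 0.47 for the proteasome, 0.29 and 0.23 for ER chaperones, -0.99 and -1.19 for cholesterol synthesis, -0.38 and -0.43 for myelin. How alike the effects are is bounded by the 95% interval of their difference, which reached 0.47 to either side at the median of the 221 genes. In 37 of them the whole interval lay within 50% of the effect's size. For Hspa1a the difference was 0.10, with an interval from -0.79 to 1.00, and for Lss it was 0.10, from -0.75 to 0.94.

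The test of the difference itself called 0 of 12393 genes (0%) in limma, with 107 (0.863%) at an unadjusted p under 0.05. Without any difference 5% would be expected, so this fit was strict for the P5 arrays. Its spread per gene is shared by 12 groups, with replicate SDs of 0.123 to 0.160 at P5 and 0.394 in Chop null at P28. The 0 calls therefore do not show equal effects, and the intervals come from the same fit. Ddit3 had the smallest adjusted p, 0.0846, at -1.76 ± 0.28 (interval -2.34 to -1.18). Car6, a carbonic anhydrase of which a form is known to be induced through CHOP, read 3.60 and 3.55 in WT, 5.90 and 5.61 in S63del, 3.49 and 3.51 in Chop null and 3.44 and 3.58 in S63del/Chop null. It was high on both S63del arrays and low on the other 6, a difference of -2.17 ± 0.39 (interval -2.98 to -1.35; adjusted p 0.196). In a fit on the 8 arrays at P5 alone the test called Car6 and Ddit3, 2 genes, and 586 genes were called without Chop, of which 477 were also called with Chop, all with the same sign.

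Other genes differed by less than the adjusted test could resolve. Chac1 rose by 2.81 without and 1.94 with Chop, where its arrays read 4.90 and 4.75 in WT and 6.80 and 6.74 in S63del (difference 0.86, interval 0.35 to 1.38, unadjusted p 0.0027, adjusted p 1). Slc7a3 rose by 1.75 and 1.14 (unadjusted p 0.0201), and Trib3, by its brighter probe set, differed by 0.64 without and rose by 1.11 with Chop (unadjusted p 0.0909). The list of 18 genes linked to CHOP holds Ddit3 itself, whose difference the deletion sets. Of the other 17 genes 2 were called without Chop, Chac1 and Sqstm1, and 5 with Chop, with medians of 0.19 and 0.40. Sqstm1 lost its call without control replicate 1 (adjusted p 0.0897), control replicate 2 (0.0601) and mutant replicate 1 (0.127). The difference had an unadjusted p under 0.05 in 2 of the 17, Car6, at 0.01 without and 2.18 with Chop, and Chac1, whose effect was larger without Chop.

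There were 34 genes called without Chop only, and 9 of the 221 had an unadjusted p under 0.05 for the difference, against 0.863% of all genes. The 221 were chosen by the effect without Chop, which is part of that difference, so their count does not test it. The same holds for the 34, of which the farthest apart, by the probe sets used, were genes of red cells. Slc4a1 stood at -1.61 without and -0.53 with Chop, Rhag at -0.86 and -0.02 and Hemgn at -1.36 and -0.52. For Slc4a1 the difference depended on the probe set. It was -1.08 on the one used, -0.24 and -0.30 on the others, and -0.54 as the mean of all. Hemgn, an erythroid nuclear protein, read 5.24 and 4.87 in Chop null, 3.61 and 3.78 in S63del/Chop null, 3.82 and 4.10 in WT and 3.26 and 3.62 in S63del. The Chop null arrays were the highest of the 8. The mean of the 12 erythroid genes was 6.93 and 6.85 in WT and 6.61 and 6.72 in S63del, so that control replicate 1 (7.41) stood highest of all arrays at P5. Without that array Rhag and Slc4a1 lost their calls (adjusted p 0.513 and 0.542). Rhag also lost its call without mutant replicate 1 (0.201) and mutant replicate 2 (0.109), as Slc4a1 did.

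**Figure D4:**
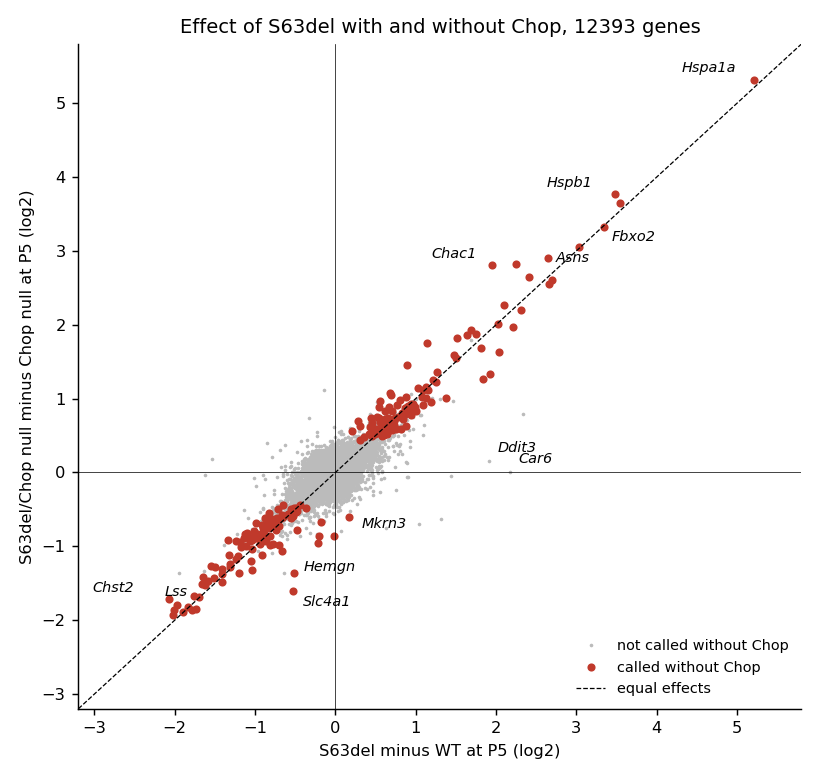
Effect of S63del at P5 with Chop (x axis) and without Chop (y axis), both log2 differences, for 12393 genes; red points have an adjusted p under 0.05 without Chop, and the dashed line marks equal effects. The red points lie along the dashed line, with 220 of 221 on the same side of 0 on both axes, whereas Ddit3 and Car6 lie to the right near 0 on the y axis.

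The response at P5 was then set beside the same comparison at P28 and 4 months. At P28, 2209 genes (17.8%) were called, 9.77% of genes higher and 8.05% lower. Of the 112 genes that rose at P5, 103 had the same sign at P28 and 66 were called, with a median of 0.54. Of the 109 that fell, 94 kept their sign and 39 were called (median -0.35). Over all genes the median at P28 was -0.02. At 4 months 0 genes were called (0%) in limma, with 181 (1.46%) at an unadjusted p under 0.05. That share too lies below the 5% expected without any difference. At that age 44 of the 112 and 66 of the 109 had the sign they had at P5. Their medians were -0.04 and -0.02, against 0.01 over all genes. In some genes replicates lay apart, with control replicate 1 close to mutant replicate 2. Pou3f1 read 9.98 and 9.05 in control and 8.56 and 9.94 in mutant nerve. Cxcl10 read 8.54 and 6.96 against 5.50 and 8.48, and Lss 8.05 and 8.68 against 8.99 and 7.98. Others did not, such as Hspb1 (11.77 and 11.86 against 11.90 and 11.81). The reason was not tested, and the 0 calls do not show an absent effect. The mean of 3 control probe sets for 18S RNA was 9.23 and 9.78 in control nerve and 5.21 and 5.23 in mutant nerve at P28. At P5 it was 8.23 and 9.40 against 9.58 and 8.11, with overlap. The Chop null arrays at P28 also had the largest spread of all 12 groups (replicate SD 0.394, against 0.123 to 0.160 at P5), and the part of either in the values at P28 was not tested.

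The difference between the ages passed the test in 92 genes (0.742%), 53 upward (0.428%) and 39 downward (0.315%). The count was 4110 without Chop null P28 replicate 1 and 78 without replicate 2. It was 51 and 25 without S63del/Chop null P28 replicate 1 or 2, 27 and 30 without Chop null P5 replicate 1 or 2, and 38 and 30 without S63del/Chop null P5 replicate 1 or 2. Several stress genes with large rises at P5 responded less at P28, but the lists did not all follow. ER chaperones had a median of 0.29 at P5 and 0.34 at P28, and degradation and translocation 0.18 and 0.44. Heat shock genes had 0.28 and 0.37, and sensors and regulators 0.03 and 0.37. The median was lower at P28 for genes linked to ATF4 (0.29 and 0.12) and for the proteasome (0.47 and 0.39). Hspa5 read 11.97 and 11.22 in control and 12.91 and 12.93 in mutant nerve at P28. Chac1 read 6.26 and 6.09 in control and 6.25 and 6.43 in mutant nerve at P28, a difference of 0.16, which is -2.64 ± 0.25 from that at P5 (adjusted p 2.51e-05). Fbxo2 read 5.57 and 5.61 against 6.23 and 6.06 (change of effect -2.78 ± 0.25, adjusted p 2.37e-05). Hspb1 read 10.98 and 11.32 against 12.17 and 12.49 (-2.59 ± 0.23, adjusted p 2.37e-05). In these 3 genes every control array at P28 lay above every control array at P5, and every mutant array at P28 below every mutant array at P5.

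Derl3 followed the same order, with an effect of 0.48 at P28 and a change of -2.17. Tubb3 read 4.58 and 4.77 in control and 5.23 and 5.17 in mutant nerve at P28, an effect of 0.52 and a change of -2.30; its control arrays at the 2 ages overlapped. Hspa1a read 6.26 and 5.46 against 8.79 and 9.16 at P28, still a called rise of 3.12, with a change of -2.20 ± 0.42 (adjusted p 0.0215). That change was lost in 11 of 19 alternatives, among them leaving out any of the 4 arrays at P5 (0.0632 to 0.118) or either S63del/Chop null array at P28 (0.0725 and 0.0583). Of the 28 genes of immature and repair Schwann cells, 2 had a called change between the ages, and 3 genes with a larger effect at P28 are given next. Sox2 read 5.92 and 4.24 in control and 7.71 and 8.27 in mutant nerve at P28, an effect of 2.90 against 0.41 at P5 (change 2.50 ± 0.54, adjusted p 0.0367). Id2, an inhibitor of differentiation, read 8.18 and 7.57 against 9.79 and 10.02 (change 1.73, adjusted p 0.0235). The changes of Sox2 and Id2 were lost in 14 and 13 of 19 alternatives. Both were lost without each of the 4 arrays at P5, each S63del/Chop null array at P28 and Chop null P28 replicate 2, left out 1 at a time (adjusted p 0.0592 to 0.164 and 0.0551 to 0.119), and without that last array they were 1.66 and 1.42. Both passed without Chop null P28 replicate 1 (adjusted p 4.51e-05 and 0.000668). Csrp2, a LIM domain protein, read 9.56 and 9.34 against 11.68 and 11.62 (change 2.24, adjusted p 0.000528).

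**Figure D5:**
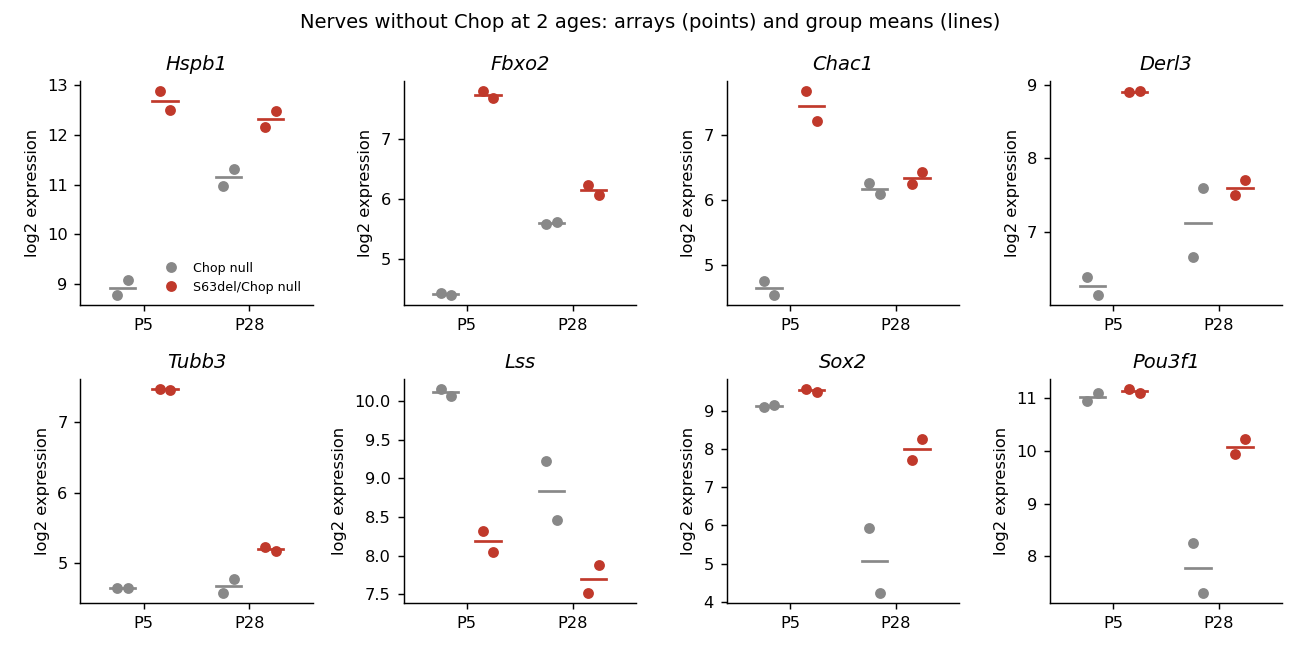
Log2 expression (y axis) of 8 genes in Chop null (grey) and S63del/Chop null nerve (red) at P5 and P28 (x axis), 2 arrays a group as points and their mean as a line. Hspb1, Fbxo2, Chac1, Derl3 and Tubb3 differ more at P5, Lss is lower in mutant nerve at both ages, and Sox2 and Pou3f1 differ at P28.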

How the data were processed

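Whole sciatic nerve was hybridised to 24 Affymetrix arrays, 2 in each of 12 groups. The authors deposited log2 values for each probe set; this scale was read from the values, and the sources used here do not give normalization or software. Of 22690 probe sets, 20380 name 1 gene and were used, keeping the brightest of each gene (12393 genes). Some genes are not reported here. Limma 3.58.1 (R 4.3.3, statmod 1.5.0) fitted 1 mean per group over 24 arrays (12 residual degrees of freedom). Comparisons are contrasts with Benjamini-Hochberg adjustment over all genes at 0.05, and SEs are those of the fit, which was tested on simulated data. With 2 arrays a group, their number limits the precision.

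The comparison, its 35 gene lists and the naming rule were chosen with earlier results of these data known. The rule takes the largest called rises, falls and differences of effects, the lowest p in every list, and fixed stress and Schwann cell markers, of which only some appear in the text. Named outside it, after values were seen, were remaining called members of the lists, Car6, Rhag, Hemgn, Mkrn3, and Adgre1, Atf6, Cryab, Fasn, Fdps, Ggps1, Hspa8, Mag and Sox10. The alternatives were another quantile normalization, other probe set choices, a filter on dim genes, fewer arrays, array weights, an intensity trend, a replicate block and each array left out. Deviations of same-numbered P5 arrays from their group means correlated between -0.25 and 0.35 across groups, so the numbers were not treated as pairs. Promoter windows are from RefSeq, GRCm38.p6.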

Additional observations from a re-analysis of the deposited data

Results flagged for a closer look

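The effect of S63del without Chop differed between P28 and P5 in 11 of the genes named here, each by limma's test of the difference of the 2 effects. It was smaller at P28 for Chac1 (-2.64 on the log2 scale, from 2.81 at P5 to 0.16), Fbxo2 (-2.78), Hspb1 (-2.59), Tubb3 (-2.30), Hspa1a (-2.20) and Derl3 (-2.17). It was larger at P28 for Sox2 (2.50), Csrp2 (2.24) and Id2 (1.73). The falls of 2 genes at P5 were smaller at P28, Serpinb6b (-1.86 and -0.19, a change of 1.67) and Slc6a15 (-1.80 and 0.18, a change of 1.98). On the P28 arrays Slc6a15 read 8.45 and 7.10 in Chop null, so its control replicates lay further apart than the groups. Of the 11 changes 3 kept their call under every alternative run, those of Chac1, Fbxo2 and Csrp2. Sox2 lost it in 14 of 19 alternatives, Id2 in 13, Hspa1a in 11 and Slc6a15 in 9, and Derl3, Serpinb6b, Hspb1 and Tubb3 in 1 or 2 each. The Chop null arrays at P28 spread the most of all groups. Without replicate 1 or replicate 2 of them, the change was 3.34 or 1.66 for Sox2 and 2.65 or 1.31 for Slc6a15. For Chac1 it moved less, to -2.56 or -2.73. What sets these 2 arrays apart was not tested.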

How the results depend on the processing

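Of 112 called genes that were followed, 49 kept their call under every alternative run, 63 lost it under at least 1, and none changed sign. Of 24 uncalled genes followed, 9 were called under at least 1: Fdps in 8 of 15 alternatives, Hspa5 and Mag in 4 of 15, Trib3 in 4 of 14, Srebf2 in 3, Fasn and Pmp22 in 2 and Atf4 and Hspa8 in 1, the last 2 with array weights. The count of called genes in S63del/Chop null against Chop null at P5 was 586 with the 8 arrays of P5, 409 with the arrays of the groups compared, 441 without the 2 arrays that stood apart and 935 with array weights; it was 78 to 103 with 1 array left out. Other settings gave 170 to 298. The difference of the effect without and with Chop gave 1 gene after another quantile normalization (Car6), above the 40th percentile, with an intensity trend and without the 8 arrays of 4 months (Ddit3 in these 3), 2 with the arrays of P5, the groups compared or without the 2 that stood apart (Car6 and Ddit3), 3 with array weights, and 0 or 1 with 1 array left out. The difference between P28 and P5 gave 5 genes with the groups compared, 12 with array weights, 46 with the crossed replicate block and 25 to 4110 with 1 array left out. The causes were not tested, beyond the fewer arrays that some of these fits hold. The fit without the arrays of 4 months and the crossed block were chosen after seeing the data.

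Uncalled values near 0 changed sign. Ggps1 was 0.06 as the mean of its probe sets. With 1 P5 array left out the ranges were -0.11 to 0.01 for Ggps1, -0.18 to 0.02 for Sox10, -0.06 to 0.08 for Car6, -0.00062 to 0.23 for Ppp1r15a, -0.05 to 0.14 for Ero1a and -0.06 to 0.04 for Egr2. The replicate block gave 180, 0 and 68 called genes in the 3 comparisons, and exchanging the replicate numbers of S63del/Chop null at P5 gave 170, 0 and 46. As the mean of all probe sets, Pdia4, Hsp90b1, Mbp, Mal, Nars, Cebpd, Stard4 and Scd2 lost their calls (adjusted p 0.0639 to 0.787).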
